A study of Homo sapiens with 17 samples.

Results

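The H3K36me3 peaks found in both UTX-knockout (KO) and wild-type (WT) neurons are described here. A shared peak is a peak of the KO list that overlaps a peak of the WT list by at least 1 bp. Of 8937 KO peaks, 4260 (47.7%) met this rule, and they touched 3973 of 30144 WT peaks (13.2%). Members were thus chosen by the overlap of the authors' own peak calls. The other 4677 KO peaks had no WT overlap, and 26171 WT peaks had no KO overlap.

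H9, a widely used line of human embryonic stem cells, was taken at passage 40 and differentiated into neurons, which were collected at day 40. KO cells carry UTX-/- and form lines KO1 and KO2, and WT cells are unedited H9. UTX, encoded by KDM6A, is a demethylase of H3K27. Each line had 1 ChIP sample for H3K36me3, 1 for H3K27me3 and 1 control, and polyA RNA was measured in 3 KO1, 2 KO2 and 3 WT libraries. The deposited files hold 1 peak list per genotype and mark, so no peak comparison has a replicate. Each KO list names 1 treatment alignment, and no source used here states whether it holds KO1, KO2 or both.

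H3K36me3 is the trimethyl mark of lysine 36 of histone H3. In mammals SETD2 places it co-transcriptionally, since it travels with elongating RNA polymerase II, and the mark accumulates over gene bodies toward their ends. It recruits readers such as the de novo DNA methyltransferases and, at zinc finger gene clusters, lies alongside H3K9me3. PRC2, the enzyme complex that places H3K27me3, is inhibited by it.

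RNA totals were 18.7 to 31.5 M estimated counts in KO and 17.4 to 27.8 M in WT (M for mega). RNA of KDM6A was 40.8, 30.1 and 34.1 CPM (counts scaled to library size) in KO1, 25.9 and 33.9 in KO2, and 36.03, 35.9 and 35.2 in WT. The groups overlapped, so its total RNA does not check the genotype labels. The neuronal marker MAP2 was found in every library, at 160 to 1287 CPM in KO and 780 to 1192 CPM in WT. COL1A1, a collagen of mesenchymal cells, was at 278, 27544 and 258 CPM in KO1, 9226 and 14456 in KO2, and 126, 7.65 and 387 in WT. KO1 replicate 2 and both KO2 libraries stood apart from the other 5 along a first principal component that held 59.9% of the variance. The summed level of 7 mesenchymal markers was 22434 to 60898 CPM in these libraries, against 575 and 771 CPM in the other KO libraries and 35.4 to 1517 CPM in WT. None of these 7 genes holds a peak of either H3K36me3 list. In bulk samples fewer cells of a type and less RNA per cell cannot be told apart.

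Shared peaks were short pieces of gene bodies, and some of the elements they cover can be read base by base. Exons, introns and UTRs were not assigned, because the annotation used holds gene spans. Of 1562 annotated microRNA hairpins, 21 (1.34%) were touched by a shared peak, 15 of them wholly inside it. The 5 hairpins wholly inside the longest such peaks are shown because they give exact positions and letters within the marked gene bodies. They come from RefSeq GRCh38.p14, are written from the 5′ end, and capitals mark the mature miRNA. MIR1231 (chr1:201808611-201808702, + strand) lies in NAV1, MIR6821 (chr22:49962866-49962939, + strand) in PIM3, MIR106B (chr7:100093993-100094074, - strand) in MCM7, MIR6805 (chr19:55388181-55388242, + strand) in RPL28 and MIR6728 (chr1:8866502-8866590, - strand) in ENO1.
MIR1231: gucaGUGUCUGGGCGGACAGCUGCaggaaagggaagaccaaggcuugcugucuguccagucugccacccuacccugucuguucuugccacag
MIR6821: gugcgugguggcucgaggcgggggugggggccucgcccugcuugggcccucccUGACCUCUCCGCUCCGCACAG
MIR106B: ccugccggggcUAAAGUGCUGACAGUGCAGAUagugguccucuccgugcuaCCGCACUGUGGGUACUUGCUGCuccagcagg
MIR6805: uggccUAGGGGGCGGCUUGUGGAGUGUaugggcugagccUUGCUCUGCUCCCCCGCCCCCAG
MIR6728: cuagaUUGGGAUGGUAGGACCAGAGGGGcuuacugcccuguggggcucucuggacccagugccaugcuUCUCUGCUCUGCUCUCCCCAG

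The shared peak over MIR1231 was 903 bases long with a fold enrichment of 4.51, and its WT partner 1576 bases with 5.51. The peak over MIR106B, which belongs to a cluster known for promoting proliferation, was 788 bases with 4.28 in KO and 1182 bases with 8.39 in WT. Over MIR6821 the values were nearer to each other, at 896 bases and 5.14 in KO and 972 bases and 5.85 in WT. Of the 21 hairpins touched, 9 were on chromosome 19, which held 14.8% of all shared peaks. Its share of all annotated hairpins was not counted, so the 9 are not read as an excess.

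Promoters were nearly free of shared peaks. Only 14 shared peaks (0.329%) touched 1 of 35116 RefSeq promoter windows of 300 bases. The share was also under 1% in the other H3K36me3 peaks, at 0.278% of KO peaks without WT overlap and 0.566% of WT peaks without KO overlap. It was 18.0% in KO H3K27me3 peaks. These cover 16.7 Mb in 10950 peaks, against 2.64 Mb in 8937 KO H3K36me3 peaks. Longer peaks touch a window more easily, and the shares were not adjusted for peak length. PAX6, a transcription factor of neural progenitors, and SYNE2, a protein of the nuclear envelope, each had a window wholly under a shared peak, and in both genes it belongs to an internal start, 17.3 and 454 kb inside the gene. They are shown with CpG dinucleotides in capitals, and BRD2, a bromodomain reader of acetylated histones, with the 116 bases under the shared peak in capitals. The windows are chr11:31800612-31800911 (- strand), chr14:64215704-64216003 (+ strand) and chr6:32972834-32973133 (+ strand).
PAX6: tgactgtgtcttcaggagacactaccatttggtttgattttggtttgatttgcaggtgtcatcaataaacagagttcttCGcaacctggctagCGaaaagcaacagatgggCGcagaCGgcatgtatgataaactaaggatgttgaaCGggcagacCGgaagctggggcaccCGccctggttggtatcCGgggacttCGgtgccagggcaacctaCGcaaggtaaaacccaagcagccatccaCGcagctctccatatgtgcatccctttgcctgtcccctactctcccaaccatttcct
SYNE2: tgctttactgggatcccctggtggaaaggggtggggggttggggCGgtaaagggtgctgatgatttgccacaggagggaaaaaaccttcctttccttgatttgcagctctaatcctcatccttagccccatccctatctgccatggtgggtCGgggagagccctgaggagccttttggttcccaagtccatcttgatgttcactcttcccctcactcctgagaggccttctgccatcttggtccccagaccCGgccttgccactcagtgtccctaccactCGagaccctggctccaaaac
BRD2: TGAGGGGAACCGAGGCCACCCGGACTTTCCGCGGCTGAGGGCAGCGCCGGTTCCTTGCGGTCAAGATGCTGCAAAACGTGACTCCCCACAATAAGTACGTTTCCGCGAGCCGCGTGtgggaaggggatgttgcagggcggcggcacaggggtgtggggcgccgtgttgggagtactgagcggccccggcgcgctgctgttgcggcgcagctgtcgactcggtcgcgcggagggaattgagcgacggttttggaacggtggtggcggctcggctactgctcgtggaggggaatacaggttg

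The PAX6 window held 11 CpG dinucleotides and the SYNE2 window 4, while the median of all windows was 14. BRD2 had 34, in a window that belongs to an internal start too, 4.49 kb inside the gene. The shared peak reached this window from its upstream side, which is also within the gene span. Across the 14 touched windows the median GC content was 55.5%, against 58.7% over all windows.

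Shared peaks were shorter in KO than in WT. Each was paired with the WT peak it overlapped by most bases, the partner. The median length was 276 bases in KO and 592.5 bases for the WT partner, with a median log2 ratio of -1.003. The KO peak was the shorter of the pair in 3723 cases (87.4%) and the longer in 533 (12.5%). The lists also differ in calling: the KO list came from 44.3 M tags (45.7 M in its control) at a fragment length of 200 bases, and the WT list from 22.5 M tags (23.03 M in its control) at 269 bases. The shortest peaks were 200 bases in KO and 269 bases in WT, the same values as the fragment lengths. The length difference cannot be told apart from these settings, and their part in it was not tested.

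Fold enrichment over the control was lower in KO as well. Its median was 4.21 in KO and 5.21 in the WT partner, with a median log2 ratio of -0.30 and quartiles of -0.57 and -0.03. The KO value was lower in 3271 pairs (76.8%) and higher in 989 (23.2%). The pileup, the number of stacked fragments at the summit, had a median of 19 in both. The KO list had 44.3 M tags and the WT list 22.5 M, so these medians are not at equal depth. All these values chose the members or come from the same peak calls, so no test was made. A KO peak's fold said little about its partner's: Spearman's rho was 0.05 for fold and 0.10 for length over 4260 pairs, which all come from the same 2 alignments.

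**Figure D1:**
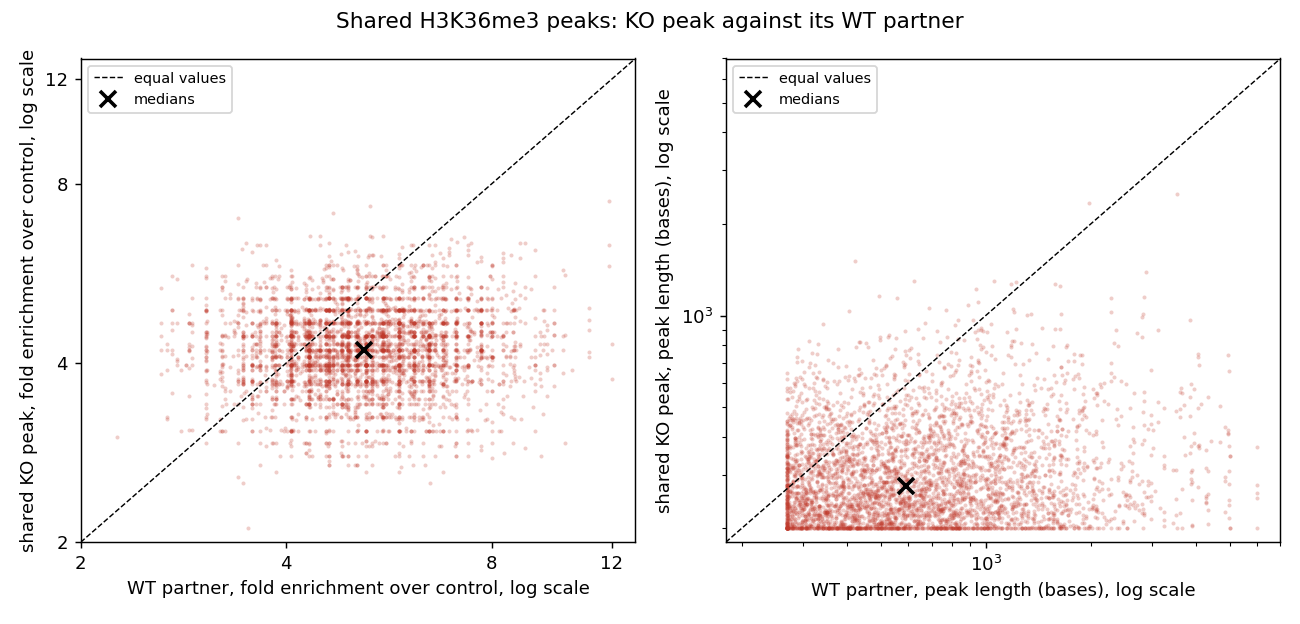
Each point is 1 shared peak, with the WT partner on the horizontal axis and the KO peak on the vertical axis, on log scales. Left, fold enrichment over control; right, peak length in bases. The dashed line marks equal values and the cross the medians (fold 4.21 in KO and 5.21 in WT, length 276 and 592.5 bases), and most points lie below the line.

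Most pairs were simple. There were 3261 pairs (76.5%) in which 1 KO peak met 1 WT peak and neither touched another, and 1865 shared peaks (43.8%) lay wholly inside WT peaks. In 385 WT peaks 2 or more KO peaks were found, up to 7, and 204 KO peaks touched 2 or 3 WT peaks. KO peaks covered 37.7% of the bases of the WT peaks they touched. In simple pairs the summits were a median of 154 bases apart, and 35.1% were within 100 bases.

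Longer KO peaks were shared more often. Of KO peaks from 200 to under 250 bases 38.7% were shared, from 250 to under 350 bases 48.1%, from 350 to under 500 bases 62.5%, and from 500 to under 1000 bases 79.3%. Of the 29 KO peaks of 1000 bases or more, 27 were shared. Longer peaks have more bases to overlap with, so these shares are a property of the rule too. KO peaks without WT overlap had a median length of 241 bases and a median fold of 4.18, close to the shared ones in fold.

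At the edge of the rule, 4 members overlapped a WT peak by 1 base. They lie in ZKSCAN7, TLE3, BOC and FBXO28, with fold values in KO of 3.94, 3.74, 3.08 and 3.79. Just outside, peaks in ZNF608 and PDZD2 abutted a WT peak with a gap of 0 bases, with fold values of 4.45 and 3.89. Overlaps of 10 bases or fewer were seen in 46 members, and 342 KO peaks without overlap lay within 100 bases of a WT peak.

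The 10 longest shared peaks ranged from 1252 to 2513 bases. The longest was in MIDN, midnolin, at chr19:1253716-1256228, with 2513 bases and a fold of 4.96 in KO, and its WT partner had 3527 bases and 8.77. In ZNF436, a C2H2 zinc finger gene, the peak at chr1:23360788-23363139 had 2352 bases and 6.04 in KO, against 1984 bases and 5.27 in WT. Here the KO peak was the longer and the higher. PCBP2, an RNA-binding protein, had 1509 bases and 4.28 in KO, against 423 bases and 3.87 in WT. DBN1, the actin-binding drebrin of dendritic spines, had 1387 bases and 4.90 in KO, against 2877 bases and 8.55 in WT. Peaks of 1252 to 1302 bases followed in ACIN1, MAP1B, ZNF649, PRRC2A, in the overlapping genes ZNF146 and ZNF565, and in ZFAS1, a noncoding host of small nucleolar RNAs on chromosome 20. The MAP1B peak, in a microtubule-associated protein of neurons, was 1300 bases in KO and met 2 WT peaks with 1195 bases in all, which covered 87.5% of it.

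**Figure D2:**
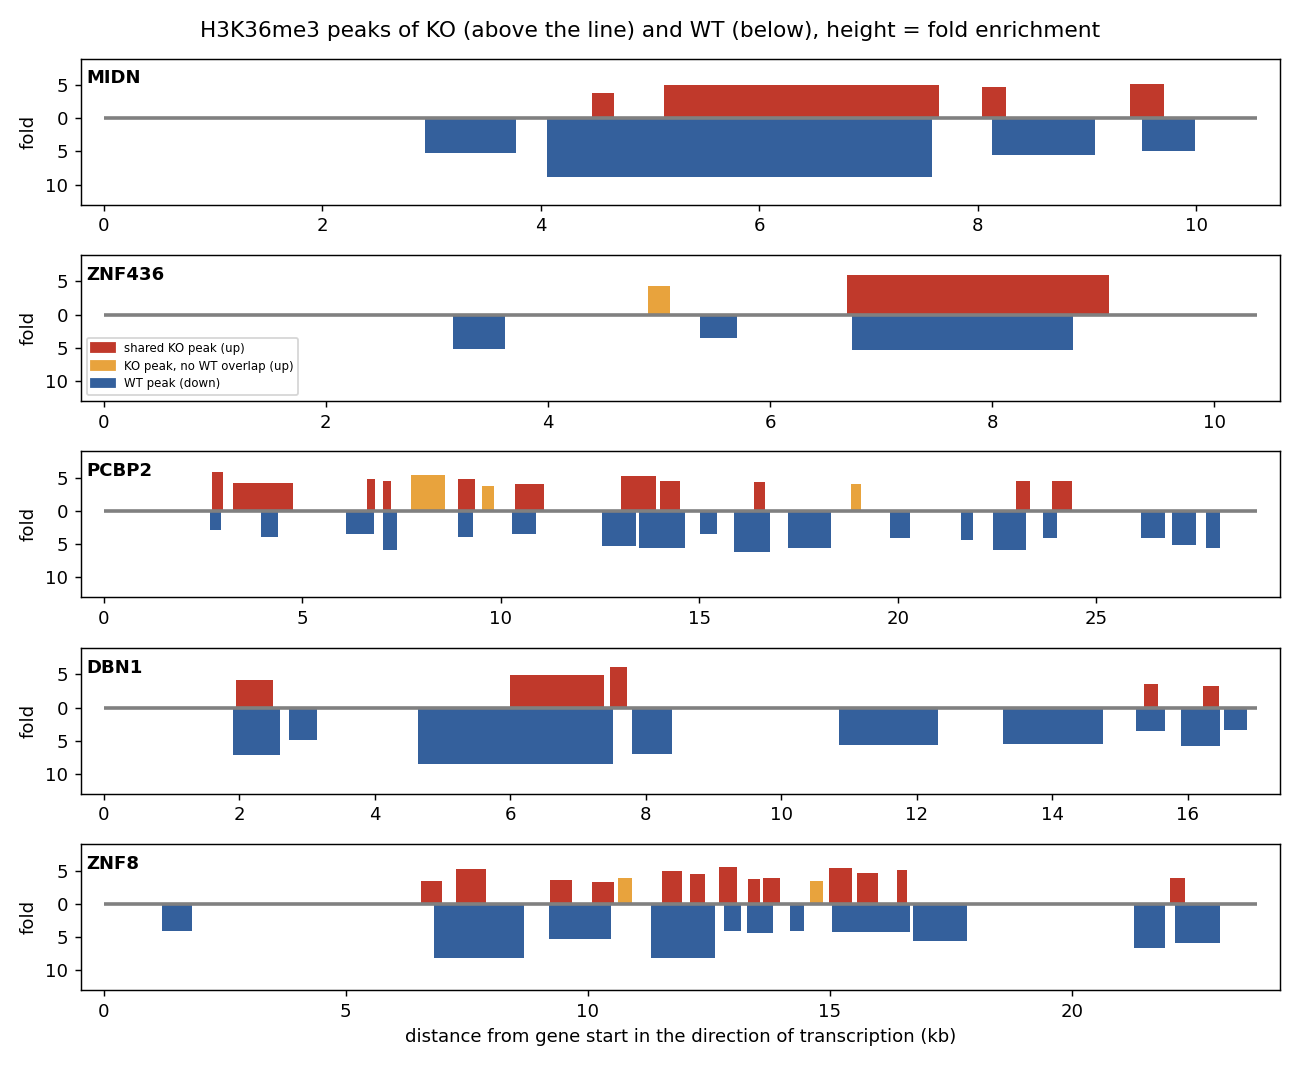
Peaks along 5 genes, with the distance from the gene start in kb on the horizontal axis and fold enrichment as height, KO above the line and WT below. Red marks shared KO peaks, orange KO peaks without WT overlap and blue WT peaks. The genes hold the 4 longest shared peaks (MIDN, ZNF436, PCBP2, DBN1), plus ZNF8, which has 13 shared peaks and 11 WT peaks.

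The highest fold among shared peaks was 7.48 in ZNF3, whose WT partner had 11.9. The next were 7.35 in ZNF146 and ZNF565 (WT 5.30), 7.15 in NAV1 (WT 4.68) and 7.01 in ZNF260 (WT 3.40). Of the 10 highest, 4 lay in genes with a zinc finger symbol (ZNF3, the overlapping ZNF146 and ZNF565, ZNF260 and ZNF48) and 1 in RBAK, which also encodes a zinc finger protein. The others lay in NAV1, PRPF8 and DDX23 of the spliceosome, POLR2A, the largest subunit of RNA polymerase II, and the ribosomal gene RPS24, at 6.52 to 7.15. The KO value exceeded that of the WT partner in 8 of these 10, which were chosen by the KO value.

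ZNF260 had the largest gain, with a log2 ratio of KO to WT fold enrichment of 1.04, as had SEC16A, of endoplasmic reticulum exit sites, and PKM, pyruvate kinase, had 1.03. GLUL, glutamine synthetase, had the largest loss, with a fold of 2.93 in KO and 10.3 in WT and a log2 ratio of -1.81. RPL13A followed with 2.79 in KO and 9.44 in WT, and TNRC18 with 3.76 in KO and 12.0 in WT. These 3 KO peaks lay wholly inside WT peaks of 1795 to 2716 bases. Each was 1 of several shared peaks in its gene, and the gene means differed less. The mean fold over 4 shared peaks in GLUL was 4.17 in KO and 9.16 in WT. It was 3.63 and 9.44 over 3 in RPL13A, and 4.395 and 7.78 over 14 in TNRC18. In RPL13A the mean WT fold was that of the WT peak above. The gains above are also those of single peaks in genes with more than 1 shared peak.

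Shared peaks were almost all in genes: 4139 (97.2%) lay in the span of a protein-coding gene, 2072 genes in all, which is 10.4% of 19974. KO peaks without WT overlap were in coding genes in 96.0% of cases and WT peaks without KO overlap in 96.2%. There were 1192 genes with 1 shared peak, 417 with 2 and 463 with 3 or more, and 33 had 10 or more. Sharing by gene was broader than by base: 85.7% of the KO peaks without WT overlap also lay in a gene with a WT peak. The median gene with a shared peak had 659 bases under KO peaks and 2820 under WT peaks, and 1946 of these genes had fewer KO than WT bases.

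The 10 genes with most shared bases had 11 to 21 shared peaks each. NAV1, a microtubule-associated guidance protein, led with 17 shared peaks over 6401 bases, and PRRC2B had 21 peaks over 6303 bases. PCBP2 had 11 over 5848, ZNF462 16 over 5811, MSI1, an RNA-binding protein of neural progenitors, 15 over 5700, and PTPRS, a receptor tyrosine phosphatase, 14 over 5625. HNRNPUL1, TRIM24, PRRC2A and ZNF8 followed with 5571, 5277, 5214 and 5104 bases. All bases under KO and WT peaks were 7101 and 19315 in NAV1, 6949 and 36780 in PRRC2B, and 7237 and 10813 in PCBP2. In each of these 10 genes WT peaks covered more bases.

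Shared peaks lay toward the ends of genes. Over 3314 shared peaks in 1 gene of known strand, the median peak centre was 68.0% along the gene, 17.8% lay in the last 10% of the gene and 1.81% in the first 10%. KO peaks without WT overlap had a median of 63.3% and WT peaks without KO overlap one of 69.9%. No test was made, since peaks of 1 alignment are not replicates.

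**Figure D3:**
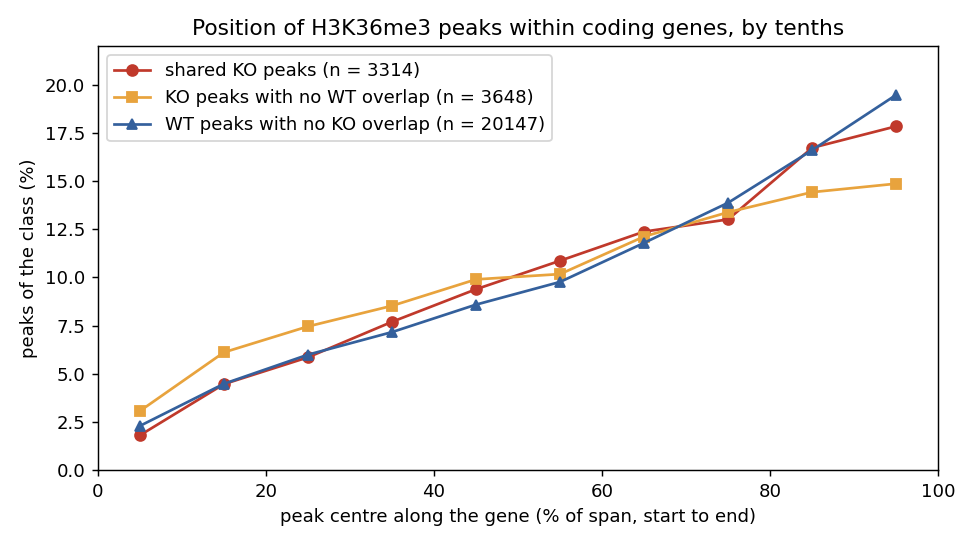
Percentage of peaks in each 10% of the gene span, from start to end, for shared KO peaks, KO peaks without WT overlap and WT peaks without KO overlap. All 3 lines climb toward the end, to 17.8% of the shared peaks in the last bin.

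Chromosome 19 was the richest in shared peaks. It held 629, or 14.8% of all shared peaks, against 6.54% of KO peaks without overlap and 10.8% of WT peaks without overlap, and 67.3% of its KO peaks were shared. Chromosomes 22 and 17 came next with 57.5% and 55.9%, and chromosome 2 was lowest with 29.7%. WT peaks covered 1891 kb on chromosome 19, more than on any other. Chromosome 1 was next with 1342 kb and 43.1% of its KO peaks shared, and chromosome 22 had 665 kb and 57.5%. The part of WT coverage in these shares was not tested. Within chromosome 19 the share was lower in zinc finger genes: 158 of 309 KO peaks in zinc finger genes were shared (51.1%), and 471 of 626 elsewhere (75.2%). On the other chromosomes it was 57.4% in zinc finger genes and 44.8% elsewhere. The windows of 1 Mb with most shared peaks were 49 to 50 Mb, with 42 in genes such as PRMT1, SNRNP70 and RPL13A, and 1 to 2 Mb, with 38. The window from 57 to 58 Mb had 35, and all 15 of its genes with a shared peak were zinc finger genes.

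**Figure D4:**
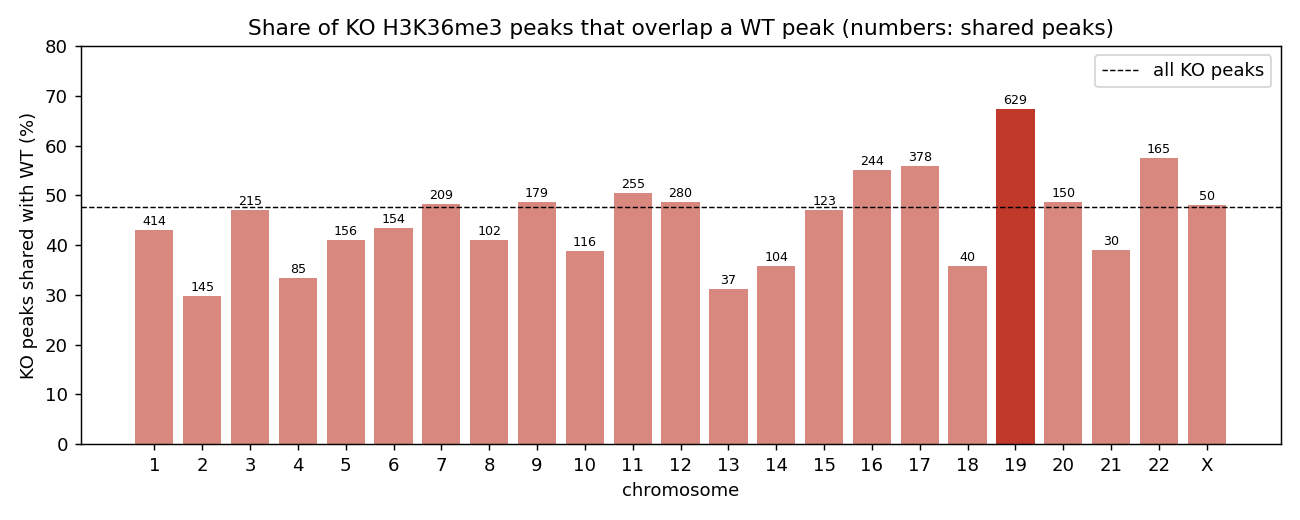
Percentage of the KO peaks of each chromosome that overlap a WT peak, with the number of shared peaks above each bar. The dashed line marks 47.7% over all KO peaks, and chromosome 19 has 67.3%.

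C2H2 zinc finger genes encode DNA-binding proteins, many of which recruit TRIM28 and repress transposable elements. They were 176 of the 2072 genes with a shared peak, and 3.06% of all coding genes are of this kind. On chromosome 19 shared peaks were found in 82 zinc finger genes (30.6% of those there) and in 270 of its 1451 coding genes. Zinc finger genes held 8.33% of shared peaks, 6.35% of KO peaks without WT overlap and 4.06% of WT peaks without KO overlap. KO peaks without WT overlap touched 174 zinc finger genes, close to the number for shared peaks. On chromosome 19 the median length in zinc finger genes was 358 bases in KO and 660.5 in the WT partner, and elsewhere on it 270 and 869. The median fold was 4.44 in KO and 5.05 in WT in these genes, and 4.21 and 5.59 elsewhere. Among those on chromosome 19 ZNF8 had most shared bases, followed by ZNF649 with 3072, ZNF146 and ZNF565 with 2673 from the same peaks, ZNF134 with 2610, ZNF426 with 2527, ZNF43 with 2156 and ZNF606 with 2011. Reads of genes with similar stretches of sequence can be placed wrongly, and how the authors filtered multiply placed reads is not stated in any source used here.

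H3K27me3 rarely met a shared peak. Only 9 shared peaks (0.211%) touched a KO H3K27me3 peak and 4 (0.0939%) a WT one, while KO peaks without WT overlap touched a KO one in 0.107% of cases and WT peaks without KO overlap in 0.267%. The 9 were in TP53BP2 (2), PAX6 (2), PCGF1, a Polycomb subunit, the overlapping NOXO1 and TBL3, and 3 outside coding genes. In PAX6 the 472-base shared peak at chr11:31800602-31801073, which covers the window printed above, had a fold of 2.63 in KO and 3.87 in WT. It lay under a KO H3K27me3 peak of 1059 bases and fold 3.08, and no WT H3K27me3 peak touched it. The KO H3K27me3 list came from 37.6 M tags and the WT list from 22.4 M. Neither the 9 and 4 above nor these PAX6 calls are thus at equal depth, and the part of depth was not tested. PAX6 RNA was 210, 17.7 and 287 CPM in KO1, 11.6 and 122 in KO2, and 325, 327 and 424 in WT. All KO libraries were below all WT libraries, with the lowest values in 3 libraries rich in COL1A1, and edgeR's adjusted p was 0.39. Whether both marks lie in the same cells was not tested.

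RNA of genes with a shared peak was, in the median, near WT. Of 2054 such genes in the RNA table, 2048 (99.7%) passed the filter on low counts, against 62.3% of coding genes with no H3K36me3 peak. The share was 99.4% in genes with KO and WT peaks but none shared, 99.0% with KO peaks only and 98.0% with WT peaks only. The median log2 fold change of genes with a shared peak, KO over WT, was -0.06, and that of all 18614 genes tested -0.01. edgeR's quasi-likelihood test called 0 of them at an adjusted p under 0.05, as it called 0% of all genes, and the lowest adjusted p of all was 0.0941. At an unadjusted p under 0.05, 170 were higher in KO (11.5% of all tested genes were) and 157 lower (6.45% of all tested genes). DESeq2 called 49 higher (2.39%), against 4.83% of all genes, and 14 lower (0.684%), against 1.16% of all genes. Genes with KO and WT peaks but none shared had 2.27% higher and 0.81% lower. Those with KO peaks only had 4.49% and 0.75%, and those with WT peaks only 2.47% and 1.57%. Without KO1 replicate 2 and both KO2 libraries DESeq2 called 12 genes with a shared peak, with 7 of the 63 among them. Of all genes it then called 0.877% higher and 0.55% lower. Leaving out 1 library moved the 63 to between 8 (without WT replicate 3) and 212 (without KO1 replicate 3), by more than 1.5 times in each case.

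Changes of RNA and of the mark were nearly uncorrelated from gene to gene. Over 2048 genes the log2 KO over WT fold enrichment and the log2 RNA fold change had a Pearson r of -0.01 and a Spearman rho of -0.01, and the ratio of covered bases had 0.05 and 0.02. Over 458 genes with 3 or more shared peaks the values for fold enrichment were -0.03 and -0.03. These are correlations across genes, which are not independent replicates and share the same libraries. The mark values come from 1 list per genotype, and 1192 of the 2072 genes with a shared peak had only 1. A relation hidden by such noise could thus be missed. In the 512 genes with the lowest ratio of KO to WT bases the median log2 RNA fold change was -0.08, and in the 512 with the highest -0.07.

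Genes whose KO libraries were all above all WT libraries numbered 145 (7.08%, against 6.29% of all tested genes), and 162 were all below (7.91%, against 6.16%). In genes with KO and WT peaks but none shared, 6.81% were all above and 9.32% all below. With KO peaks only the shares were 9.23% and 5.49%, and with WT peaks only 6.29% and 8.50%. The 6 with a shared peak and the largest log2 fold change among those higher in the authors' deposited table were TNS3, FSTL1, FNDC3B, VCL, TLN1 and MYH9. Among these, tensin (TNS3), vinculin (VCL) and talin (TLN1) link integrins to actin, MYH9 is a nonmuscle myosin and FSTL1 a secreted glycoprotein. VCL was at 224, 360 and 94.1 CPM in KO1, 456 and 300 in KO2, and 75.5, 62.1 and 70.5 in WT. TNS3 was at 55.0, 580 and 45.6 CPM in KO1, 159 and 283 in KO2, and 28.5, 20.2 and 29.7 in WT. TLN1 was at 162, 544 and 120 CPM in KO1, 407 and 385 in KO2, and 98.1, 84.4 and 85.6 in WT. Their highest values were in the 3 libraries with most COL1A1, and KO1 replicates 1 and 3 were above WT too. A fit without those 3 libraries is given below, and the cause of their difference was not tested. In the authors' deposited table the log2 fold changes of VCL, TNS3 and TLN1 were 2.06 (SE 0.46), 3.13 (SE 0.76) and 1.88 (SE 0.50). edgeR gave each an adjusted p of 0.24. Without those 3 libraries, with 2 KO libraries left, DESeq2 gave VCL, TNS3 and TLN1 log2 fold changes of 1.20, 0.95 and 0.65 with adjusted p of 0.038, 0.0072 and 0.048. FSTL1, FNDC3B and MYH9 then did not pass, with adjusted p of 0.111, 0.054 and 0.066. edgeR's adjusted p for these 6 genes without those libraries was 0.43 to 0.54. The libraries left had also served to choose these genes, so the calls without those 3 are no independent support.

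The 6 lower genes were STOX2, LRP4, ECI1, TLE1, MACROD2 and XYLT1, with deposited log2 fold changes of -1.19 to -0.68. STOX2 was at 105, 47.7 and 125 CPM in KO1, 49.6 and 76.8 in KO2, and 215, 180 and 163 in WT. TLE1, a Groucho-family corepressor, was at 147, 131 and 186 CPM in KO1, 109 and 171 in KO2, and 215, 285 and 255 in WT. Of these 6, DESeq2 without the 3 libraries called STOX2 alone (log2 fold change -0.69, adjusted p 0.022), and edgeR's adjusted p was 0.43 to 0.60. The libraries left had also served to choose these 6. STOX2, LRP4 and ECI1 each held 1 shared peak of 200 bases, the shortest length the KO list has, and TLE1 had 2 shared peaks.

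The 5 lowest edgeR p values in genes with a shared peak were those of ZNF316, DAPK3, ZNF521, CERS2 and PALLD, all at an adjusted p of 0.24. ZNF316 was at 78.7, 71.6 and 64.8 CPM in KO1, 66.6 and 67.6 in KO2, and 96.5, 98.7 and 100.1 in WT. The KO libraries were close to each other here and apart from WT. DAPK3, a kinase of the actin cytoskeleton, was at 73.2, 85.6 and 63.6 CPM in KO1, 90.5 and 81.1 in KO2, and 52.9, 51.3 and 50.4 in WT.

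**Figure D5:**
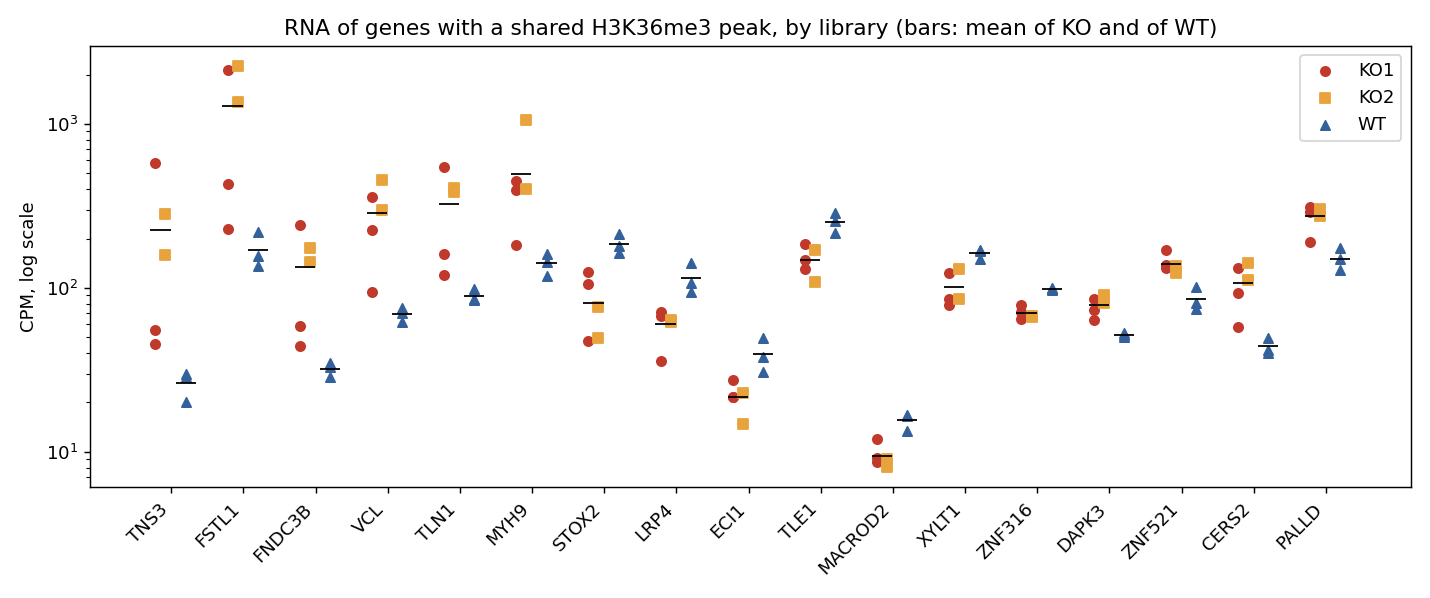
CPM on a log scale for the 17 genes above, 1 point per library, KO1 and KO2 left of WT, with bars at the mean of the KO and of the WT libraries. In every gene the KO points lie wholly above or wholly below the WT points.

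RNA of chromosome 19 zinc finger genes with a shared peak was mostly below WT without passing a test. Of 80 tested, 68 had a negative log2 fold change, with a median of -0.23, against 7160 negative of 14551 coding genes tested, but edgeR and DESeq2 called 0. At an unadjusted p under 0.05, 1 of the 80 was higher in KO (11.5% of all tested genes were) and 6 were lower (6.45% of all tested genes). The 155 tested genes of this kind without a shared peak had a median of -0.19 with 122 negative. Without the 3 libraries rich in COL1A1 the median of the 80 was -0.029, and the part of these libraries in the difference was not tested further. ZNF8 was at 45.3, 23.2 and 50.9 CPM in KO1, 22.04 and 31.7 in KO2, and 48.6, 54.2 and 52.2 in WT. ZNF649 was at 12.6, 12.7 and 15.9 CPM in KO1, 10.4 and 15.6 in KO2, and 16.3, 18.2 and 16.4 in WT, with all KO libraries below WT and an adjusted p of 0.32 by edgeR.

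Of all coding genes 10.4% held a shared peak, and of those that passed the RNA filter 2048 of 14551 did. Genes that place, remove or read H3K36 methylation held one in 17 of 29 cases, all 29 of them past that filter: 3 of 6 writers (NSD1, NSD2 and ASH1L), 2 of 6 erasers (KDM4A and KDM4B) and 12 of 17 readers and partners. SETD2 had none, with 2 KO peaks and 1 WT peak that do not meet. SUPT6H, an elongation factor that travels with RNA polymerase II, had most, with 9 peaks over 3086 bases. SETD2 RNA was 132, 143 and 139 CPM in KO1, 132 and 129 in KO2, and 143, 145 and 132 in WT, with overlapping groups. NSD2, which places the dimethyl mark, was at 368, 208 and 390 CPM in KO1, 228 and 277 in KO2, and 439, 440 and 471 in WT. Its KO libraries were all lower, with the lowest values in the 3 libraries rich in COL1A1, and edgeR's adjusted p was 0.25. MORF4L1, a chromodomain reader, was at 470, 490 and 423 CPM in KO1, 498 and 454 in KO2, and 384, 388 and 373 in WT, with an adjusted p of 0.26 by edgeR and 0.041 in the authors' deposited table. DNMT3A, a DNA methyltransferase that reads the mark, had 4 shared peaks with a mean fold of 3.87 in KO and 8.75 in WT, and its RNA groups overlapped.

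Among markers, shared peaks were found in 4 of 6 progenitor genes (NES, PAX6, VIM and NOTCH1) and 2 of 12 neuronal genes (MAP2 and TUBB3), and in 0 of 7 mesenchymal, 4 astrocyte and 3 pluripotency genes, against 10.4% of all coding genes. No test between these short lists was made. NOTCH1, the receptor that maintains neural progenitors, had 13 shared peaks with a mean fold of 4.39 in KO and 5.72 in WT. Its RNA was 368, 132 and 355 CPM in KO1, 155 and 236 in KO2, and 515, 400 and 456 in WT. All KO values were lower, with the lowest in the 3 libraries rich in COL1A1, and the adjusted p was 0.27 by edgeR. NES and VIM did not share this pattern, as their groups overlapped. NES was at 1030, 186 and 889 CPM in KO1, 373 and 464 in KO2, and 778, 797 and 742 in WT. VIM was at 2399, 5125 and 1955 CPM in KO1, 2572 and 4760 in KO2, and 2400, 1800 and 2012 in WT. Its highest values were in the 3 libraries rich in COL1A1. Of 6 H3K27 writers and erasers, EZH1, SUZ12 and KDM6B had a shared peak, KDM6B with 6 over 2736 bases, and KDM6A had no H3K36me3 peak in either list. Of 12 genes of zinc finger gene chromatin 6 had one, among them TRIM28 with 1 and MORC2 with 5 shared peaks.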

How the data were processed

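The members and gene lists were chosen with earlier results of these data known. Per the labels the RNA libraries are biological replicates. Separate differentiations are not mentioned, so p-values reflect the spread of these libraries only. The submitters' processing notes name Bowtie2 2.4.1, MACS2 2.2.7.1, Salmon 1.1.0, DESeq2 1.26.0 and GRCh38. MACS2 ran in narrow mode with a q cutoff of 0.01, on 1 treatment and 1 control alignment and with 1 tag kept per position, per the file headers. The deposited lists give pileup signal, fold ratio over control, and -log10 q-value, with peak length in bases, all the authors' own. Deposited RNA values are estimated counts per gene, not normalized, and the authors' deposited table gives log2 fold changes with SE, a p-value and a Wald score.

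Overlaps used bedtools 2.31.1. Genes are RefSeq GRCh38.p14 protein-coding spans, and zinc finger genes were taken by symbol (ZNF, ZFP, ZSCAN, ZKSCAN, ZIM, ZBTB, ZIK). Strand was known for 15813 of 19974 coding genes. Counts were rounded and fitted with edgeR 4.0.16 (R 4.3.3; filterByExpr, TMM, quasi-likelihood F-test, Benjamini-Hochberg) over all genes, pooling KO1 and KO2 as KO, with DESeq2 1.42.0 as an alternative. CPM are TMM-scaled. Scripts were tested on simulated data. Named genes were those of the 10 longest and 10 highest shared peaks, the largest gains and losses, the genes and the chromosome 19 zinc finger genes with most shared bases, 6 higher and 6 lower genes, the 5 lowest edgeR p-values, and writers, erasers and readers of the mark. Other genes named, such as markers and hosts of printed sequences, were chosen after their values were seen.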

Additional observations from a re-analysis of the deposited data

Results flagged for a closer look

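In LRP4, a receptor of the LDL-receptor family, 1 KO library stood apart from the other 4: KO1 replicate 2 had 35.9 CPM, and its gap to the next library was 0.728 of the range over 5 KO libraries. Of 17 genes checked, this was the only one, and chance alone flags about 1 in 20.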

How the results depend on the processing

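The log2 KO/WT ratios kept their sign under every alternative run. With 50% of the KO peak under WT peaks the median log2 fold ratio was -0.32 and the length ratio -1.14. With 50% reciprocal overlap there were 1212 shared peaks in 932 genes, with ratios of -0.17 and -0.36 and 10.97% on chromosome 19. At a -log10 q of at least 5 there were 1213 in 791 genes, with -0.22 and -1.13, 10.88% in zinc finger genes and 17.89% on chromosome 19. Only 18 pairs of peaks of at least 1 kb, in 16 genes, remained, with -0.70 and -0.39, 33.3% in zinc finger genes, 33.3% on chromosome 19 and 0% on H3K27me3. Pairs of 1 KO and 1 WT peak gave -0.26 and -0.85, and summed WT lengths -1.06. Genes with 500 bp or more of shared peak numbered 341. The causes were not tested.

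edgeR called 0 genes with a shared peak in every alternative, the replicate block included. Of 7 same-numbered pairs 2 had a correlation over 0.1, both between KO1 and KO2 (0.27 and 0.16). Those between WT and KO ran from -0.32 to 0.07. KO2 has 2 libraries, centred on their own mean, so this check cannot settle whether the numbers pair libraries. DESeq2 called 63, or 12 without KO1 replicate 2 and both KO2 libraries, and 8 to 212 with 1 library left out, a setting chosen after seeing the data. The median log2 RNA fold change of genes with a shared peak was -0.049 with RLE scaling, -0.012 without the 3 libraries and -0.082 to -0.039 with 1 left out. For chromosome 19 zinc finger genes it was -0.28 with 3 groups, -0.029 without the 3 libraries and -0.32 to -0.15 with 1 left out. The 17 genes plotted by library were chosen by their direction and p in these libraries, so their direction and calls with all libraries support nothing. Without the 3 libraries DESeq2 called 5 of the 17 (TNS3, VCL, TLN1, STOX2 and ZNF521), and of all genes 0.877% higher and 0.55% lower. edgeR called 0 of the 17, with adjusted p of 0.43 to 0.60. This fit reuses WT and KO1 libraries by which the 17 were chosen, so its calls are no independent support either.

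Peak depth limits what can be said: the KO list comes from more tags and a shorter fragment length than the WT list, so peak number, length and fold cannot be told apart from these settings. All genes annotated gave 2308 genes in place of 2072, an alternative chosen after seeing the data.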
